A study of Mus musculus with 4 samples.

Results

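The cells described here are day 4 gastruloid cells with a high *Mesp1* count and no *Eomes* count. Members were chosen by their own UMI counts: at least 5 UMIs of *Mesp1*, 0 of *Eomes*, 0 of *Tbx6* and fewer than 3 of *T*, in cells with at least 2000 UMIs and a mitochondrial share under 20%. This rule selected 825 of the 7202 day 4 cells that passed the filter, or 11.5% (exact Clopper-Pearson 95% interval 10.7 to 12.2%), of 29190 such cells in the whole series. The series holds 4 single-cell libraries, each from gastruloids of another day (4, 5, 6 or 11), made with a droplet kit that counts the 3′ ends of messages by UMI (a barcode for each captured molecule). Gastruloids are aggregates of mouse embryonic stem cells that form the germ layers in culture, and these were made from the wild type line Zx1. All libraries share a pulse of the Wnt agonist Chiron from day 2, and bFGF, VEGF and ascorbic acid were added from day 4, so day 4 is the start of that treatment. Each library pools several gastruloids, and with no replicate the values below have no test. Their 95% intervals (exact Poisson for levels, exact conditional binomial for ratios, exact Clopper-Pearson for shares of cells) cover counting error only.

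*Mesp1* encodes a transcription factor that marks mesoderm leaving the primitive streak, including the precursors of the heart and of head muscle. *Eomes*, a T-box factor of the anterior streak, is known to activate *Mesp1* in the earliest cardiac mesoderm, and it is switched off as these cells migrate. *T* (Brachyury) and *Tbx6* are T-box factors of the streak and of presomitic mesoderm. In the mouse genome build GRCm38, *Mesp1* lies at chr7:79792241-79793788 on the minus strand and *Eomes* at chr9:118478212-118486132 on the plus strand (GENCODE gene spans).

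Of the 7202 cells, 2385 held at least 5 *Mesp1* UMIs. Among these, 1127 (47.3%, 45.2 to 49.3%) held no *Eomes* UMI, 246 held 1, 303 held 3 to 5 and 554 held more than 5. The condition on *Tbx6* alone would have removed 215 of the 1127 cells and that on *T* alone 130, with 43 in common, which left the 825 members. Among cells with 5 to 9 *Mesp1* UMIs 60.1% had no *Eomes* UMI, against 37.0% among cells with 10 or more, so the members lay toward the lower end of the *Mesp1* high cells.

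**Figure D1:**
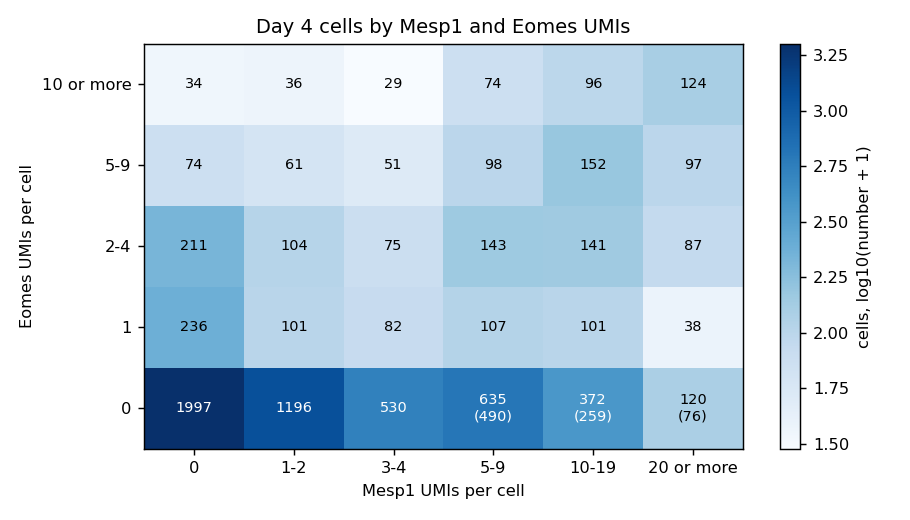
Numbers of day 4 cells by *Mesp1* UMIs per cell (columns) and *Eomes* UMIs per cell (rows), with shading on a log10 scale and members in parentheses. The members sit in the 3 right-hand cells of the bottom row, 490 with 5 to 9, 259 with 10 to 19 and 76 with 20 or more *Mesp1* UMIs.

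The median member held 8 *Mesp1* UMIs, with quartiles of 6 and 12 and a maximum of 69, and 131 members (15.9%) stood at the threshold of 5. *T* was at 0 in 692 members, at 1 in 107 and at 2 in 26. Just outside the rule, 430 cells met the other conditions with 3 or 4 *Mesp1* UMIs and 206 with 1 *Eomes* UMI. In CPM (a gene's summed UMIs over all UMIs of the set, times 1e6), *Mesp1* was at 351 in members, 109 in the former and 348 in the latter. *Aldh1a2*, which the rule did not use, was at 106 CPM in members, 72.7 in cells with 3 or 4 *Mesp1* UMIs and 47.3 in cells with 1 *Eomes* UMI.

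Depth bears on a rule of this kind, since a shallow cell can miss *Eomes* by chance and a deep cell reaches 5 *Mesp1* UMIs more easily. Members had a median of 24437 UMIs and 4655 genes per cell, and all other day 4 cells 25474 UMIs and 4717 genes. The median mitochondrial share was 1.85% in members and 2.38% in the others. Of the 530 cells with the highest doublet scores, 54 were members (6.55% of members, against 7.46% of the others). S phase calls made up 45.8% of members and 49.9% of the others, and G2/M calls 50.8% and 45.1%. Across the series, 94 barcodes occurred in more than 1 library, and 13, 5 and 18 barcodes of day 4 were also in the libraries of days 5, 6 and 11.

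Markers of endoderm and epiblast were lower in the members than in other cells. *Cdh1*, the E-cadherin of epithelia, had a UMI in 2.18% of members, against 18.6% of other cells. After thinning every cell to 10000 UMIs, which left 817 members, the share was 1.22% in members and 49.0% in endoderm reference cells (417 cells with at least 3 *Sox17* and 1 *Foxa2* UMIs). The 12 genes of the definitive endoderm list summed to 39.8 CPM in members and 305 CPM in other cells, and the 14 genes of the epiblast list to 222 and 714 CPM. The 10 genes of the neural ectoderm list summed to 59.2 CPM in members, 78.5 in other cells and 50.7 in the *Mesp1* and *Eomes* positive cells defined below, and none reached 50 CPM. *Hand1*, a bHLH factor of lateral and extraembryonic mesoderm, had a UMI in 84.5% of thinned members and in 15.1% of thinned endoderm reference cells. The share was 5.30% in 151 pluripotent reference cells (at least 10 *Pou5f1* UMIs and none of *Mesp1*, *T* or *Sox17*). *Hand1* was not particular to members. Its median was 2.37 UMIs per 10000 in members, 2.25 in *Mesp1* and *Eomes* positive cells and 1.60 in all other cells.

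Against all other day 4 cells, few genes stood apart. Genes with at least 50 CPM in either set were described, and a gene was counted when the ratio of CPM, with 10 CPM added to both sets, was at least 2 or at most 0.5. Of 2635 genes, 2 (0.0759%) were at least 2-fold higher in members and 15 (0.569%) at least 2-fold lower. The 2 higher genes were *Mesp1*, which the rule used, and *Aldh1a2*, which encodes the retinaldehyde dehydrogenase that makes retinoic acid in early mesoderm. Since the same cells and UMIs chose the members, all of these ratios are descriptions.

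*Aldh1a2* was at 106 CPM (102 to 110) in members and 41.4 CPM (40.5 to 42.3) in all other cells, a ratio of 2.55 (2.44 to 2.66). In members the *Aldh1a2* level ran from 0 at the lower quartile to 1.73 UMIs per 10000 at the upper quartile, with a median of 0.695, whereas the median of the other cells was 0. After thinning, 51.5% of members and 23.3% of other cells held an *Aldh1a2* UMI, against 3.85% of endoderm and 0.662% of pluripotent reference cells. The *Aldh1a2* message was thus found in many members but not in all of them at this depth.

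The next genes in order were below the 2-fold limit. *Hoxb1*, an anterior Hox gene and known target of retinoic acid, was at 114 CPM in members and 66.4 in other cells. *Crabp1*, a cytoplasmic binding protein of retinoic acid, was at 231 and 139 CPM, and *Tgfb2*, a TGF-beta ligand, at 66.6 and 38.7 CPM. *Meis2*, a homeodomain partner of Hox proteins, was at 170 and 110 CPM. Their ratios were 1.72 (1.65 to 1.79), 1.66 (1.61 to 1.71), 1.72 (1.63 to 1.82) and 1.54 (1.49 to 1.60).

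Several of the genes that were lower in members had their highest levels in the endoderm or pluripotent reference cells, where *Spink1* was at 674 CPM and *Dppa5a* at 4172 CPM, respectively. *Spink1* was at 5.88 CPM in members and 70.1 in other cells, *Trh* at 6.59 and 73.0, and *Epcam*, an epithelial adhesion molecule, at 9.37 and 70.5. *Dppa5a* and *Pou5f1*, both expressed in pluripotent cells, were at 70.9 and 28.2 CPM in members and at 331 and 71.8 in other cells. *Tdgf1*, the Nodal co-receptor Cripto, was at 21.4 and 63.7 CPM. With the endoderm and pluripotent reference cells left out, 5814 other cells remained and 5 of 2632 genes (0.19%) were at least 2-fold lower, namely *Eomes*, *Dppa5a*, *Hoxaas3*, *Tdgf1* and *S100a10*. *Epcam*, *Chchd10*, *Trh* and *Mt2* left the count because they were under 50 CPM in both sets, while their ratios stayed at 0.400, 0.409, 0.459 and 0.491. *Spink1* was then at 10.7 CPM in the other cells, with a ratio of 0.768.

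The 5 marker genes given for these cells were *Mesp1*, *Ptgds*, *Anxa2*, *Egln1* and *Pfkp*, and apart from *Mesp1* none was 2-fold higher in members as a whole. *Ptgds*, the lipocalin-type prostaglandin D synthase, was at 37.9 CPM in members, 25.5 in all other cells and 44.1 in the *Mesp1* and *Eomes* positive cells defined below. *Anxa2*, a calcium-dependent membrane-binding protein, was at 72.5, 56.7 and 70.0 CPM in the same sets. *Egln1*, the oxygen-sensing prolyl hydroxylase that marks HIF proteins for degradation, was at 148, 108 and 136 CPM, and *Pfkp*, a phosphofructokinase of glycolysis, at 58.7, 38.0 and 43.5 CPM. Between members and the *Mesp1* and *Eomes* positive cells, *Ptgds* had a ratio of 0.860 (0.796 to 0.929), with both levels under 50 CPM. That interval does not cover the spread between cells. In the second group of members described below, 14 of 271 cells held 52.4% of the *Ptgds* UMIs. *Anxa2* did not differ beyond counting error (ratio 1.04, 0.978 to 1.10).

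The comparison with *Mesp1* positive cells that still held *Eomes* message asks what else differed between *Mesp1* cells with and without it. It used 1167 cells with at least 3 *Mesp1* and 2 *Eomes* UMIs. They had no condition on *Tbx6* or *T*, so the 2 sets differed by rule in more than *Eomes*. *Mesp1*, which both rules used at unlike limits, was at 351 CPM in members and 374 CPM in these cells. These cells were deeper (median 31940 UMIs) and 15.2% of them were among the cells with the highest doublet scores. With the cells of the highest doublet scores left out (771 members and 990 *Mesp1* and *Eomes* positive cells), 7 of 2678 genes (0.261%) were at least 2-fold higher in members and 17 (0.635%) at least 2-fold lower, and they included all of the 6 higher and 12 lower genes given next.

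Of 2658 genes, 6 (0.226%) were at least 2-fold higher in members and 12 (0.451%) at least 2-fold lower. The 6 higher genes were *Aldh1a2*, *Cdx2*, *Tgfb2*, *Hoxb1*, *Prrx2* and *Id2*. *Cdx2*, a caudal homeobox factor, was at 52.6 CPM in members and 15.9 CPM in *Mesp1* and *Eomes* positive cells. *Prrx2*, a homeobox factor of mesenchyme, was at 69.7 and 26.8 CPM, and *Id2*, an inhibitor of bHLH factors, at 125 and 54.3 CPM. Among cells with 15000 to 35000 UMIs (528 members and 609 *Mesp1* and *Eomes* positive cells) 9 of 2707 genes (0.332%) were higher, and they included all 6.

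Apart from *Eomes*, which the rule fixed, the genes lower in members were *Mixl1*, *Tdgf1*, *S100a10*, *Vstm2b*, *Myl7*, *Cyp26a1*, *Asb4*, *Olfm1*, *Kdr*, *Vrtn* and *Smad1*. Among cells with 15000 to 35000 UMIs 20 of 2707 genes (0.739%) were lower, and they included all 12. *Mixl1*, a homeobox factor of the streak, was at 4.13 CPM in members and 62.6 CPM in *Mesp1* and *Eomes* positive cells, and *Tdgf1* at 21.4 and 145 CPM. *Kdr*, the VEGF receptor of haemato-endothelial and cardiac progenitors, was at 45.1 and 118 CPM. *Myl7*, an atrial myosin light chain, was at 35.7 and 117 CPM. The ratios of *Mixl1* and *Kdr* were 0.0660 (0.0537 to 0.0802) and 0.383 (0.359 to 0.408). With 10 CPM added they were 0.195 and 0.431, beside a median of 0.996 over all 2658 genes.

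Retinoic acid is made from retinal by *Aldh1a2*, bound in the cytoplasm by *Crabp1*, sensed by nuclear receptors and degraded by *Cyp26a1*, and it sets the front to back identity of early mesoderm. The genes of making and of breakdown went in opposite directions between the 2 kinds of *Mesp1* cells. *Aldh1a2* was at 106 CPM in members and 30.1 CPM in *Mesp1* and *Eomes* positive cells, and *Cyp26a1* at 33.2 and 105 CPM. Their ratios were 3.51 (3.29 to 3.74) and 0.318 (0.295 to 0.342). After thinning, *Cyp26a1* had a UMI in 20.6% of members and 57.2% of *Mesp1* and *Eomes* positive cells, and *Aldh1a2* in 51.5% and 19.9%.

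*Rdh10*, the retinol dehydrogenase that supplies retinal, was at 16.4 CPM in members and 7.45 CPM in *Mesp1* and *Eomes* positive cells. Its ratio with no CPM added was 2.20 (1.90 to 2.55), although both levels were under the limit of 50 CPM. *Rarb*, a retinoic acid receptor and known target gene, was at 4.72 and 1.45 CPM, also under that limit. Both genes were picked after their values were seen, and the other listed genes under the limit are not given here. Of the 15 listed genes of the pathway, 4 reached 50 CPM in either set, 1 (*Aldh1a2*) was at least 2-fold higher and 1 (*Cyp26a1*) at least 2-fold lower, with a median ratio of 1.42. Against all other cells 3 of the 15 reached 50 CPM and all 3 ratios were above 1.

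Anterior Hox genes went the same way as *Aldh1a2*. *Hoxb1* was at 114 CPM in members and 45.3 CPM in *Mesp1* and *Eomes* positive cells, and *Hoxb2* at 97.0 and 64.0 CPM. Of 39 Hox genes only *Hoxb1* and *Hoxb2* reached 50 CPM in either set, and the sum over all 39 was 354 CPM in members and 171 CPM in *Mesp1* and *Eomes* positive cells.

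Among the genes named here, *Cyp26a1* carries a classical retinoic acid response element next to its start site. Its promoter is shown because the gene was lower in members while *Aldh1a2* was higher. The window (chr19:37697558-37697857, plus strand, GRCm38.p6, RefSeq, from 250 bases before the start to 50 after it) is printed 5′ to 3′ with the match to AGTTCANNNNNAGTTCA in capitals, read on the opposite strand:
Cyp26a1: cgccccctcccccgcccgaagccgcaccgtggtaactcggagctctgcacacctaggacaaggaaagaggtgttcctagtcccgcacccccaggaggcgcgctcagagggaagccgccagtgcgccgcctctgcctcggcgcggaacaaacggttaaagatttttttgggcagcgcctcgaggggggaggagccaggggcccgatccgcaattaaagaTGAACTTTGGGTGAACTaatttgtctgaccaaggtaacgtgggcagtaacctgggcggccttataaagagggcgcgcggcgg
On both strands this motif occurred in 7 of 27025 promoter windows (0.0259%). The motif is spelled as in the *Cyp26a1* window, so this share leaves out other forms of the element. Its low value therefore says nothing about how rare such elements are. Whether retinoic acid acted on *Cyp26a1* in these cells was not tested. A match in a sequence is not a measurement of binding.

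**Figure D2:**
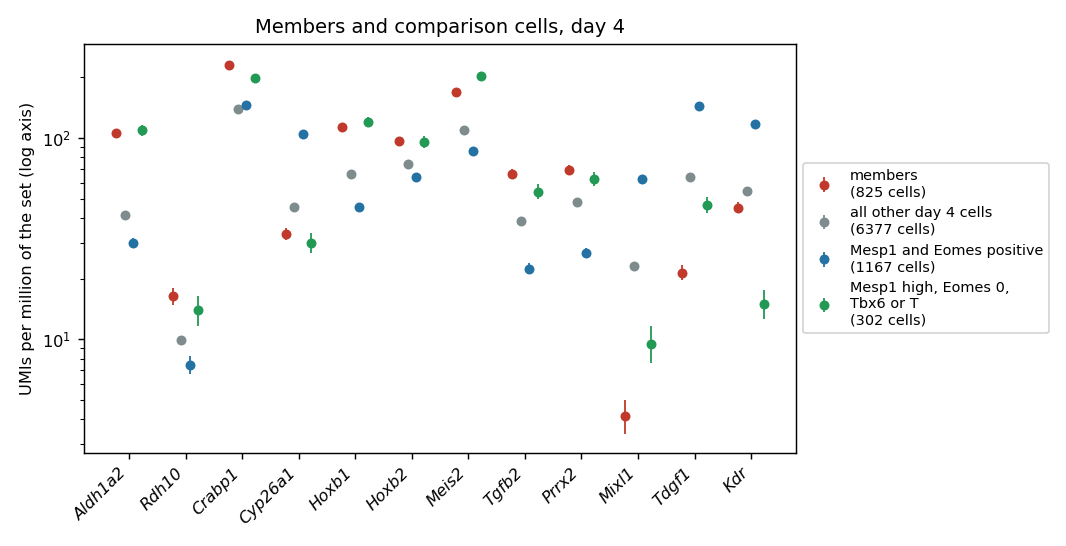
Level of 12 genes (CPM of each set, log axis) in the 825 members, all 6377 other day 4 cells, 1167 *Mesp1* and *Eomes* positive cells and 302 *Mesp1* high, *Eomes* 0 cells with *Tbx6* or *T*; bars are exact Poisson 95% intervals. *Aldh1a2* was at 106 CPM in members and 30.1 CPM in *Mesp1* and *Eomes* positive cells, while *Cyp26a1*, *Mixl1*, *Tdgf1* and *Kdr* had their highest level in the latter.

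A further comparison used the 302 cells that met the *Mesp1* and *Eomes* conditions but held *Tbx6* or at least 3 *T* UMIs. For *Aldh1a2* and *Hoxb1* the interval of the ratio held 1. *Aldh1a2* was at 106 and 109 CPM (ratio 0.968, 0.901 to 1.04), and *Hoxb1* at 114 and 120 CPM (95% interval of the ratio 0.887 to 1.02). *Crabp1* was at 231 and 198 CPM (ratio 1.17, 1.11 to 1.23). The 15 genes of the retinoic acid pathway summed to 660 CPM in members and 793 CPM in the cells with *Tbx6* or *T*, and the 39 Hox genes to 354 and 473 CPM. Of 2655 genes, 2 (0.0753%) were at least 2-fold higher in members and 10 (0.377%) at least 2-fold lower.

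The 2 higher genes were *Hand2*, a bHLH factor of heart and limb mesoderm, at 65.9 CPM in members and 25.5 in the cells with *Tbx6* or *T*, and *Nrp1*, a receptor for semaphorins and VEGF, at 81.1 and 34.9 CPM. *Bmp4*, a ligand of lateral mesoderm, followed at 79.8 and 35.0 CPM. All 3 cardiogenic genes at 50 CPM or more had ratios above 1, with a median of 1.82. Cells were also chosen after thinning to 10000 UMIs, with the limits lowered to 2 UMIs for *Mesp1* and 2 for *T*. Then 12 of 2680 genes (0.448%) were higher and 17 (0.634%) lower, among them these 2 and all 10.

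The lower genes were *T*, which the rule used, *Fst*, *Fgf8*, *Rspo3*, *Hoxaas3*, *Pou5f1*, *Defa30*, *Cited1*, *S100a11* and *Dll3*. *Fgf8*, a growth factor of the streak and presomitic mesoderm, was at 59.1 CPM in members and 206 in the cells with *Tbx6* or *T*. *Rspo3*, a secreted enhancer of Wnt signalling, was at 93.0 and 305 CPM, and *Dll3*, a Notch ligand of presomitic mesoderm, at 23.3 and 58.8 CPM. Of the 14 presomitic and somitic genes 4 reached 50 CPM and 3 were at least 2-fold lower, with a median ratio of 0.443 beside 1.01 over all genes.

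The members were not 1 uniform population. Leiden clustering of the 825 cells on 2000 variable genes, without the 4 genes of the rule, gave 3 groups of 301, 271 and 253 cells, and the finer resolution of 1 gave 6. The groups are called here by 2 of their 10 leading genes each, picked after the values were seen. Because clustering uses the genes that then lead each group, the levels describe the groups and test nothing. A repeat that withheld 433 list genes from the clustering again found 3 groups. The lists of ribosomal, oxidative phosphorylation and cell cycle phase genes were not withheld. Leading genes outside the lists, such as *Espn* and *Mt1*, also stayed in. In the order given, 94.7%, 97.8% and 84.2% of the cells of a group fell into the matching new group, of which they made up 94.4%, 89.2% and 94.2%. At least 2-fold higher than in other members were 0.442%, 0.797% and 0.441% of the genes tested in the new groups.

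The second group, called the *Egln1* and *Anxa2* group, carried the marker genes. *Egln1* was at 326 CPM in this group and 91.0 CPM in the other members, *Anxa2* at 189 and 34.7 CPM, *Pfkp* at 130 and 35.7 CPM, and *Ptgds* at 119 and 11.8 CPM. *Mesp1* was at 566 and 281 CPM, but the rule used it, and a floor of 5 UMIs is a higher CPM in shallow cells such as these. The median *Mesp1* count was 10 UMIs in this group and 7 and 9 in the others. The median *Egln1* level per cell was 3.05 UMIs per 10000 in this group and 0.789 and 0.801 in the other groups.

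With these 271 cells removed, the remaining 554 members were below all other day 4 cells for each of the 4 markers. The ratio with 10 CPM added was 0.855 for *Egln1*, 0.951 for *Pfkp*, 0.670 for *Anxa2* and 0.613 for *Ptgds*. Removing a group that is high in these markers lowers them in the rest by construction. No such cells were removed from the other day 4 cells, so these ratios are a description only. *Aldh1a2* was then at 88.1 CPM with a ratio of 1.91, against 2.25 for all members with 10 CPM added. No gene was left at 2-fold or more above the other cells. On the same measure *Hoxb1* (118 CPM) and *Crabp1* (246 CPM) had ratios of 1.68 and 1.71, against 1.62 and 1.61 for all members.

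The 3 leading genes of this group were *Ptgds*, *Espn*, an actin-bundling protein, and *Ier3*, an immediate early gene. *Ptgds* was unevenly spread, with 52.4% of its UMIs in the group in 14 of the 271 cells and a UMI in 46.1% of cells. *Egln1* was found in 97.0% of these cells and *Ddit4*, a stress-induced inhibitor of mTORC1, in 93.4%, and their top 14 cells held 13.9% and 15.2% of the UMIs.

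Many of the other leading genes act in glycolysis or in the response to low oxygen, in which stabilised HIF proteins bind a short DNA motif and activate glucose uptake, glycolysis and collagen hydroxylation. *Ero1l*, an oxidase of disulfide bond formation, was at 167 CPM in the *Egln1* and *Anxa2* group and 39.9 CPM in other members. *Slc2a3*, a glucose transporter, was at 189 and 47.2 CPM. *P4ha2*, a collagen prolyl hydroxylase of the hypoxia list that was not among the 10 leading genes, was at 75.7 and 21.9 CPM. *Ndufa4l2*, a mitochondrial protein known as a HIF target, was at 83.5 and 18.3 CPM.

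These gene lists gave like values in the grouping that withheld their own genes. In the grouping without list genes, 10 of the 24 oxygen sensing and hypoxia genes reached 50 CPM and 5 (*Ero1l*, *Ddit4*, *Egln1*, *P4ha2* and *Bnip3*) were at least 2-fold higher in the matching group of 297 cells than in other members, with a median ratio of 2.02. Of 23 glycolysis genes 19 reached 50 CPM, all 19 had ratios above 1 and 3 (*Slc2a3*, *Pfkp* and *Aldoc*) were at least 2-fold higher, with a median of 1.57. The median over all 2761 genes was 0.939. Over 77 nuclear genes of oxidative phosphorylation, which were not withheld from the clustering, it was 0.914. *Ndufa4l2*, which is in that list, could therefore still shape the groups. As 97.8% of the *Egln1* and *Anxa2* group fell into the matching group, the cells remain largely the same cells. This is a description as well.

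The promoters of *Egln1*, *Anxa2* and *P4ha2* are shown because the genes lead, or sit in the hypoxia list of, the *Egln1* and *Anxa2* group and hold the core motif of the hypoxia response element, ACGTG. The windows are chr8:124949205-124949504 (minus strand), chr9:69453433-69453732 (plus strand) and chr11:54100674-54100973 (plus strand) of GRCm38.p6, from RefSeq, with matches on either strand in capitals:
Egln1: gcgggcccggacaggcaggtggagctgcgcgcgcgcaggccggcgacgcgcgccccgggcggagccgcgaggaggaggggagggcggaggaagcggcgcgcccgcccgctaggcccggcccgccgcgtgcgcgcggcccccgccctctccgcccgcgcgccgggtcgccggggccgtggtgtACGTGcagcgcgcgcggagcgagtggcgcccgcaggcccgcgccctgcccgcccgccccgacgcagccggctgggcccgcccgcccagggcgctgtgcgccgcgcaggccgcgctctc
Anxa2: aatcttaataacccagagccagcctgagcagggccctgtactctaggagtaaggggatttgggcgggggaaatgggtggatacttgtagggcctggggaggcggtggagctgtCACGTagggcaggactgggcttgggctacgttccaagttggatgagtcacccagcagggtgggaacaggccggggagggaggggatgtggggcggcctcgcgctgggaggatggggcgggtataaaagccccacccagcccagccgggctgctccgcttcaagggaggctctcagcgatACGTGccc
P4ha2: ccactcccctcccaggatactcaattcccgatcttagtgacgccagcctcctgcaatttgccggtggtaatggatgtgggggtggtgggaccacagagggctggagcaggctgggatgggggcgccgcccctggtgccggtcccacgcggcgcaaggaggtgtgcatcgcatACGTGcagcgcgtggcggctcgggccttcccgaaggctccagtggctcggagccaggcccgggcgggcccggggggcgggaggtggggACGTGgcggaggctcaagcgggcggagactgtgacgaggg
The motif occurred in 5315 of 27025 promoter windows (19.7%). Of the 10 leading genes of each group, a window was found for 9, 8 and 5, of which 1, 6 and 2 held it. The 6 in the *Egln1* and *Anxa2* group were *Ier3*, *Anxa2*, *Mt1*, *Ero1l* (named *Ero1a* in RefSeq), *Ddit4* and *Egln1*. The longer form TACGTG occurred in 3.16% of windows.

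**Figure D3:**
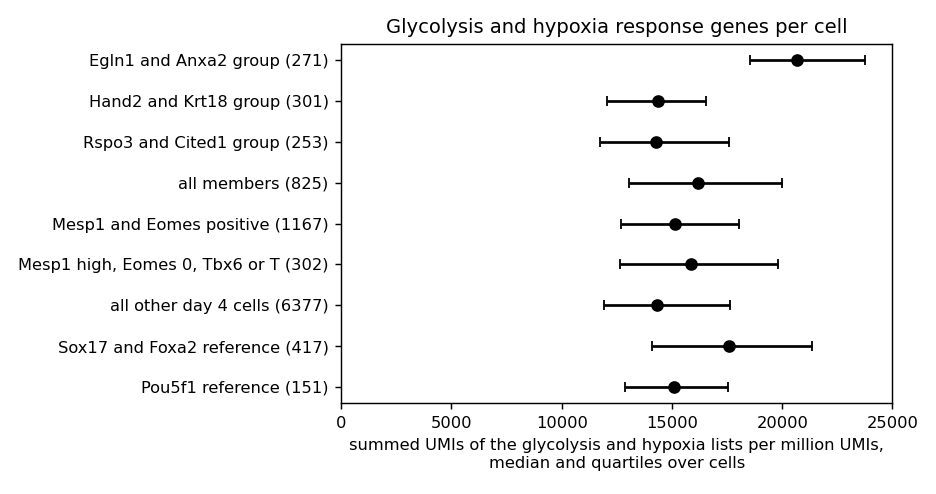
Summed level of 47 glycolysis and hypoxia response genes in CPM of a cell, as the median (point) and quartiles (bars) over cells of each set, with cell numbers in parentheses. The *Egln1* and *Anxa2* group had a median of 20688, against 14374 and 14285 in the other groups of members and 17576 in endoderm reference cells.

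Summed over the 47 genes of both lists, the median cell of the *Egln1* and *Anxa2* group was at 20688 CPM, with quartiles of 18522 and 23735. The upper quartile of the other groups was 16552 and 17600, below the lower quartile of this group. Endoderm reference cells had a median of 17576, below that lower quartile, and an upper quartile of 21366, so their range overlapped that of this group. The *Egln1* and *Anxa2* group was also the shallowest, with a median of 19848 UMIs per cell against 33097 and 22456, had the lowest mitochondrial share (1.34% against 2.04% and 2.65%), and had the most G1 calls, 9.59% of its cells against 0.791% in the *Rspo3* and *Cited1* group and none among the 301 cells of the *Hand2* and *Krt18* group. Among members with 15000 to 35000 UMIs, *Egln1* was at 345 CPM in 196 cells of this group and 107 CPM in 332 other members, and *Anxa2* at 195 and 39.3 CPM. At that depth *Ptgds* was at 129 and 18.3 CPM and *Ero1l* at 173 and 44.5 CPM.

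**Figure D4:**
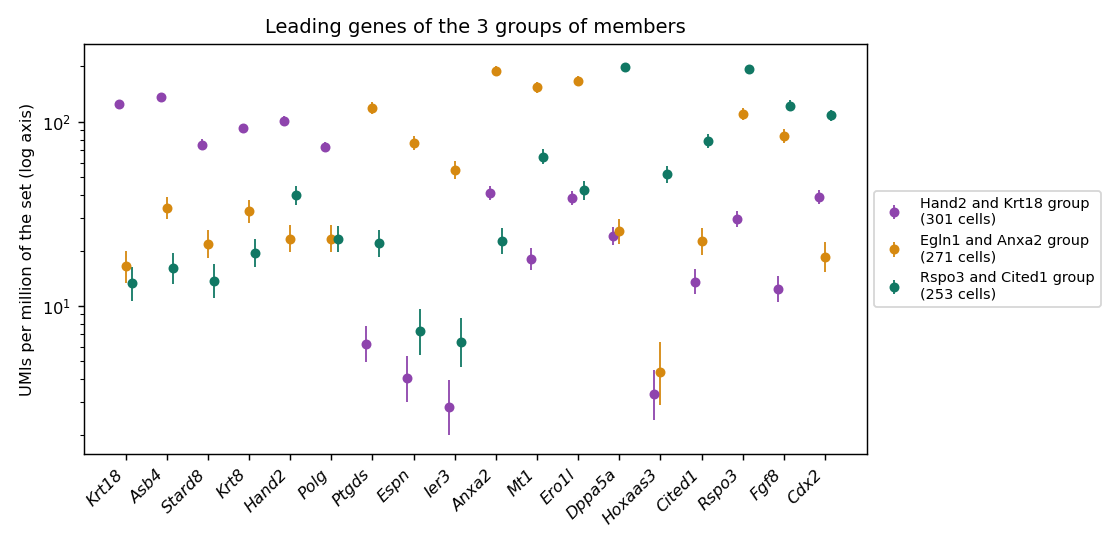
Level of the 6 leading genes of each group (CPM, log axis) in the 301, 271 and 253 members of the 3 groups, with exact Poisson 95% intervals. *Anxa2* was at 189 CPM in the *Egln1* and *Anxa2* group and at 41.3 and 22.6 CPM in the others, and *Hand2* at 101 CPM in the *Hand2* and *Krt18* group and at 23.2 and 39.9 CPM in the others.

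The first group, called the *Hand2* and *Krt18* group, was led by *Krt18*, *Asb4* and *Stard8*. *Hand2* was at 101 CPM in this group and 31.9 CPM in other members. *Krt18*, a keratin of simple epithelia, was at 125 and 14.8 CPM, and *Kdr* at 67.5 and 23.7 CPM. *Hand2* was found in 83.4% of these cells against 30.7% of other members, while 43.6% of the *Krt18* UMIs lay in 15 of the 301 cells.

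In the grouping without list genes, 5 of 17 cardiogenic genes reached 50 CPM and all 5 ratios in the matching group were above 1, with *Hand2* and *Myl7* at least 2-fold higher and a median ratio of 2.00. Of 15 genes of extraembryonic and lateral plate mesoderm 10 reached 50 CPM, 4 (*Krt18*, *Krt8*, *Msx2* and *Pmp22*) were at least 2-fold higher and the median was 1.39. *Aldh1a2* (52.4 against 156 CPM) was lower in the *Hand2* and *Krt18* group than in other members. These cells were the deepest, and among members with 15000 to 35000 UMIs *Hand2* was at 87.0 and 25.1 CPM and *Krt18* at 55.1 and 12.4 CPM.

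The third group is called the *Rspo3* and *Cited1* group. Its 3 leading genes were *Dppa5a*, *Hoxaas3* and *Cited1*, but 85.7% of the *Dppa5a* UMIs lay in 13 of the 253 cells, and at 15000 to 35000 UMIs *Dppa5a* was at 44.9 CPM in this group and 24.9 CPM in other members. *Cited1*, a transcriptional co-regulator, was at 78.7 CPM in the group and 16.5 CPM in other members. *Rspo3* was at 193 and 56.6 CPM, *Fgf8* at 122 and 36.2 CPM and *Cdx2* at 108 and 32.3 CPM.

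In the grouping without list genes, 3 of 14 presomitic and somitic genes reached 50 CPM, and 2 of them, *Cited1* and *Rspo3*, were at least 2-fold higher in the matching group, with a median ratio of 2.91. *Fgf8* and *Lhx1* were at least 2-fold higher among the streak genes. Of the 14 epiblast and pluripotency genes 3 reached 50 CPM and 2, *Dppa5a* and *Pou5f1*, were at least 2-fold higher, with a median ratio of 2.59, and the list summed to 452 CPM in the matching group and 148 CPM in other members. *Pou5f1* had a UMI in 51.0% of the *Rspo3* and *Cited1* group and 30.9% of other members, and at 15000 to 35000 UMIs it was at 61.7 and 20.7 CPM. The part of these markers in the other differences was not tested. Although *Tbx6* was 0 in every member by rule, *Cited1*, *Rspo3* and *Fgf8* were also among the genes at least 2-fold higher in the cells with *Tbx6* or *T* than in members as a whole. *Aldh1a2* was at 154 CPM in the *Rspo3* and *Cited1* group and 160 CPM in the *Egln1* and *Anxa2* group, against 52.4 CPM in the *Hand2* and *Krt18* group. *Crabp1* was highest in the *Rspo3* and *Cited1* group, at 328 CPM against 201 and 186 CPM.

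Members were also split by their *Mesp1* CPM, which is a value the rule used, so that the split is a description only. In the 275 members with the highest *Mesp1* CPM, *Ptgds* was at 94.1 CPM, *Ddit4* at 137 CPM and *Rspo3* at 163 CPM. In the 275 with the lowest they were at 7.96, 49.0 and 49.6 CPM. *Krt18* (19.3 against 113 CPM), *Asb4* (37.1 against 115 CPM) and *Hand2* (28.8 against 89.6 CPM) were lower in the cells with the highest *Mesp1*. The cells with the lowest *Mesp1* were deeper by construction, with a median of 41284 UMIs against 19359, because a cell at the threshold of 5 UMIs has a low CPM only if it is deep. Among the 528 members with 15000 to 35000 UMIs the 5 highest and 5 lowest genes of the split kept their directions, although depth still differed (medians 20279.5 and 25896 UMIs), with *Ptgds* at 97.6 and 23.3 CPM and *Hand2* at 22.1 and 65.8 CPM.

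When all 7202 day 4 cells were clustered together without the 4 genes of the rule, members were found in 13 of 15 clusters. The largest share, 202 members (24.5%), lay in a cluster led by *Ptgds*, *Anxa2* and *Mesp1*, where they made up 30.2% (26.8 to 33.9%) of 668 cells, and 167 of them came from the *Egln1* and *Anxa2* group. A cluster led by *Pfkp*, *Mesp1* and *Egln1* held 156, one led by *Mest*, *Aldh1a2* and *Crabp1* 139, and one led by *Twist1*, *Hand2* and *Prrx2* 108. The clusters led by *Ptgds* and by *Pfkp* also held 108 and 173 *Mesp1* and *Eomes* positive cells, so they were not made up of members alone. The cluster led by *Eomes*, *Mixl1* and *Tdgf1* held 525 of the 1167 *Mesp1* and *Eomes* positive cells and 14 members.

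**Figure D5:**
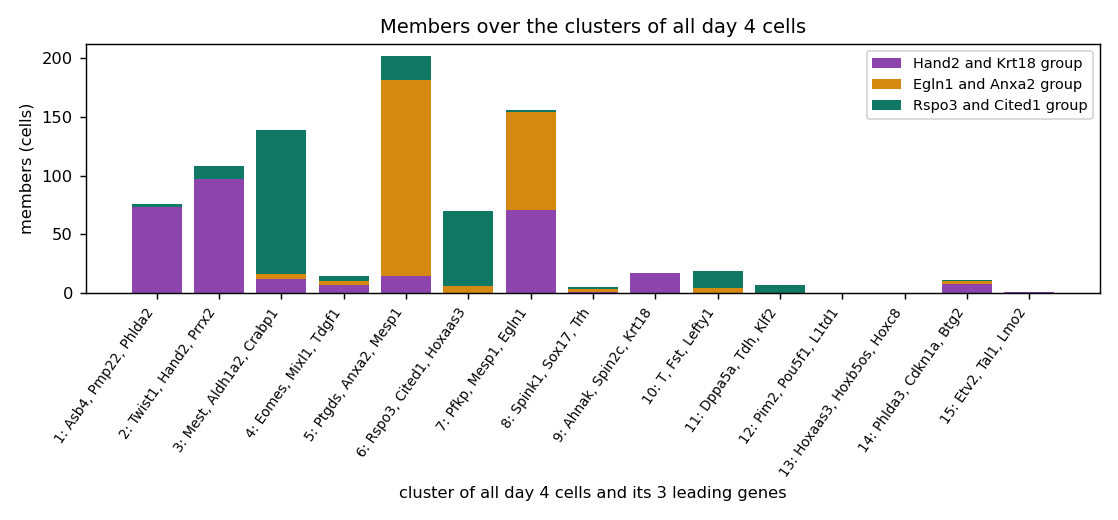
Number of members in each of the 15 clusters of all day 4 cells, coloured by their group among members; the bars start at 0 and each cluster is named by its 3 leading genes. The clusters led by *Ptgds* (202 members) and *Pfkp* (156) held most of the *Egln1* and *Anxa2* group, and those led by *Mest* (139) and *Rspo3* (70) most of the *Rspo3* and *Cited1* group.

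The same rule was applied to the other days. At day 5 it selected 79 of 7408 cells (1.07%, 0.845 to 1.33%), at day 6 1 of 5850 cells and at day 11 0 of 8730 cells, which allows a share of up to 0.0344% by the limit of 3 counts. Over the same days the *Mesp1* level over all cells was 165, 12.3, 0.630 and 0.135 CPM. The day 5 cells had a median of 23698 UMIs, against 28437 in the other day 5 cells.

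In the day 5 cells *Aldh1a2* was at 16.6 CPM and in the other day 5 cells at 1.12 CPM, and *Ptgds* at 20.5 and 1.25 CPM, from 39 and 48 UMIs in the 79 cells. *Fgf8* was at 98.6 and 12.2 CPM, *Rspo3* at 152 and 41.4 CPM, and *Cyp26a1* at 62.7 and 17.5 CPM. These 3 genes, which were not higher in members at day 4, were thus at least 2-fold higher at day 5. In all, 8 of 2691 genes (0.297%) were, among them *Mesp1*, which the rule used. *Aldh1a2* and *Ptgds* were under 50 CPM in both sets and were not counted. *Egln1* and *Anxa2* were at 58.9 and 163 CPM in these cells and at 52.3 and 146 CPM in the others. Of the 14 genes besides *Mesp1* that were highest in ratio at day 4, 9 had a ratio above 1 at day 5, with a median of 1.08 beside 0.955 over all 2691 genes, of which 35.6% were above 1. Of the 14 lowest besides *Eomes*, 10 were below 1, but so were most of the 2691 genes, of which only 35.6% were above 1. The median of these 14 was 0.763, beside 0.955 over all genes.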

How the data were processed

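The authors deposited matrices of UMI counts per gene and cell, 1 library for each of 4 days, without normalization; the submitters' notes name Cell Ranger 3.1.0 and mm10. Libraries held between 149169498 and 236714826 UMIs, and the medians over kept cells lay between 12082 and 28400.5 UMIs. Cells with under 2000 UMIs or a mitochondrial share of 20% or more were left out, which can remove small or damaged cells. Counts were summed over the cells of a set and given as CPM. Counts of genes past the fold, median ratios and ratios given without an interval used 10 added CPM. This understates differences of genes with few UMIs. Ratios given with an interval had no CPM added. Clustering (log-normalization, 2000 variable genes, 30 principal components, 20 neighbours, Leiden) used scanpy 1.11.5 and leidenalg 0.10.2, with the study's resolution of 1 for all cells and 0.5 for members. Doublets were scored with Scrublet but not removed. Functions were tested on simulated data.

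Named genes were those of the rule, the markers, the 15 highest and 15 lowest ratios of each comparison (5 for members split by Mesp1 level), up to 4 genes of each list past the fold (otherwise the 2 with most CPM), and the 3 leading genes of each group. Genes outside these were named after their values had been seen. Members and lists were chosen with earlier results of these data known. Gene spans came from GENCODE and promoter windows from RefSeq. Alternatives covered the rule, depth, doublet, level and clustering settings.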

Additional observations from a re-analysis of the deposited data

How the results depend on the processing

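The share of members depended on the rule: 17.4% with Mesp1 at 3 or more UMIs, 4.65% at 10 or more, and 15.6% without the conditions on Tbx6 and T. It was 17.8% when cells were thinned first, but the limits were then lowered to at least 2 Mesp1 UMIs and fewer than 2 T UMIs. That value reflects both changes. The share of members stayed within its counting interval with other depth, mitochondrial or doublet filters. Against all other day 4 cells, 1 of 2641 genes was at least 2-fold higher with Mesp1 at 3 or more UMIs. Without the Egln1 and Anxa2 group 0 of 2649 were higher. Lower were 37 of 7418 genes with a limit of 10 CPM and 37 of 22564 with none, beside 15 of 2635 in the main setting. Without the reference cells 5 of 2632 were lower. Against Mesp1 and Eomes positive cells, 20 of 2707 genes were lower at 15000 to 35000 UMIs. With a limit of 10 CPM, 10 of 7356 genes were higher and 24 lower, and with none 10 and 24 of 19949. Against cells with Tbx6 or T, 4 of 2655 genes were higher with Mesp1 at 3 or more UMIs and 12 of 2680 after thinning. Without the highest doublet scores 6 of 2679 were higher. The higher genes were 5 of 2655 with 1 CPM added and 5 of 2679 without the Egln1 and Anxa2 group. After thinning 17 of 2680 were lower. With a limit of 10 CPM, 4 of 7436 genes were higher and 23 lower, and with none 4 and 23 of 18748. Lower limits test more genes; otherwise the cause was not tested. Resolution 1 gave 6 groups of members, and at resolution 0.5 over all day 4 cells 42.3% of members shared a cluster. The leaving out of reference cells or of a group, the grouping without list genes and the limits on depth within the groups and the split by Mesp1 level were chosen after seeing the data. Of 990 ratios of 90 named gene comparisons under an alternative, 989 kept their side of 1, and 503 lay outside the counting interval of the main ratio. The 1 that crossed was Pfkp without the Egln1 and Anxa2 group (0.951). The 90 were the highest and lowest ratios of each comparison, so Ptgds, Anxa2 and Egln1 against all other cells were not among them. Without that group these 3 also fell below 1, to 0.613, 0.670 and 0.855. No paired analysis was possible because each day has 1 library. Genes under about 50 CPM rest on few UMIs per cell, and an absent UMI does not show an absent transcript.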
